A study of Mus musculus with 14 samples.

Results

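The genes described here are those of glycolysis and pyruvate metabolism, chosen by symbol as a list of 33 mouse genes, together with every array probe annotated to them. Of the 33, 28 had a probe and 27 were tested, on 37 of their 41 probes, beside 10004 tested genes in all. Gpi1, Eno1, Ldhb, Pfkfb1 and G6pdx had no probe in the annotation used and were not analysed here. Slc16a1, a monocarboxylate transporter, had a probe that was detected on 1 of 14 arrays and was not tested.

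Total RNA was measured on Illumina MouseRef-8 v2.0 BeadChips, on 14 arrays in 6 groups, with 3 arrays for each fibroblast group and 2 for each stem cell group. The young fibroblasts, Y-SC, came from B6CBAF1 embryonic skin at E17.5, and the aged fibroblasts, A-SC, from tail tip skin at 1.5 years. Induced pluripotent stem cells (iPSC) were made from them with retroviruses carrying mouse OCT4, SOX2, KLF4 and MYC, giving Y-iPSC and A-iPSC. A-iPSC-ZSCAN10 were made from the aged fibroblasts with the same 4 factors and, in addition, a doxycycline-inducible ZSCAN10, a zinc finger transcription factor of pluripotent cells, induced with 2 µg/ml doxycycline. Mouse embryonic stem cells (ESC), for which the labels give no strain, were the reference. ESC and iPSC were grown with serum and LIF, and fibroblasts with serum. Age cannot be told apart from developmental stage and body site here, nor ZSCAN10 from doxycycline. The labels number the arrays with clone-like codes but do not say whether they came from separate cultures, so the p-values measure only the spread between arrays, which may be technical.

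Glycolysis turns glucose into pyruvate. Hexokinase traps glucose as its phosphate, phosphofructokinase makes the committing step, aldolase splits the sugar, and the later enzymes harvest ATP. Pyruvate is then reduced to lactate by lactate dehydrogenase and exported by monocarboxylate transporters, or enters the mitochondrion, where the pyruvate dehydrogenase complex oxidises it unless pyruvate dehydrogenase kinases (Pdk) switch the complex off. Several of these steps have isoforms with different tissue patterns, and pluripotent stem cells are known for a high rate of glycolysis.

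The arrays detected 47.6% to 52.3% of probes, with a median intensity of 110.7 to 147.6. Zscan10 was not detected on the 6 fibroblast arrays and read 5.17 and 4.48 on a log2 scale in A-iPSC, against 7.96 and 8.71 in A-iPSC-ZSCAN10, 7.57 and 6.44 for Y-iPSC, and 9.53 and 9.92 for ESC. The 10 pluripotency markers summed to an intensity of 39995 to 40064 in ESC, 12308 to 16558 in Y-iPSC, 7787 to 14286 in A-iPSC-ZSCAN10 and 7439 to 7511 in A-iPSC. Nanog, Esrrb, Gdf3, Utf1 and Tdgf1 were not detected on either A-iPSC array, so this group lacked 5 of its cell type's markers. Some of this was shared by other iPSC. Esrrb averaged 4.89 for Y-iPSC and 4.83 with ZSCAN10, against 12.74 for ESC, and Tdgf1 was not detected with ZSCAN10. In the same order, Utf1 averaged 5.62 and 5.16 against 10.58, and Nanog 6.47 and 6.01 against 12.09. Zfp42 averaged 5.07 and 5.22 against 11.25, with 5.53 in A-iPSC. The loss of Gdf3 was not shared, at 10.45 and 10.91 against 11.01 for ESC. Nor was the lower Fbxo15 of A-iPSC (8.34), at 11.21 and 10.93 against 11.58. The highest A-iPSC means were those of Pou5f1 (12.25) and Sox2 (10.97), which encode introduced factors. Whether their probes read the introduced copies was not tested. The 8 fibroblast markers summed to 16881 to 32768 in Y-SC and 22428 to 27044 in A-SC, against 358 to 3410 over the stem cell arrays. All levels below are log2 normalized intensities, and since probes differ in brightness only differences of 1 probe between arrays can be read.

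A-iPSC held the highest group mean for 19 of the 27 tested genes, against 23% of all tested genes. In 11 of the 27, both A-iPSC arrays lay above the other 12 arrays, which was so for 10.1% of all tested genes. These 11 spanned the pathway from Hk2 and Pfkm through Aldoc, Tpi1, Gapdh, Pgk1, Eno2 and Pkm to the kinases Pdk1, Pdk2 and Pdk3. ESC lay below every other array for Eno2, Ldha and Pdk2, as for 8.93% of all tested genes. They lay above every other array for Pdhb, a subunit of the first enzyme of the pyruvate dehydrogenase complex, as for 13.3% of all tested genes. Neither count is read as a result about these genes. Of the 27 genes, 20 were detected on all 14 arrays, and A-iPSC had the highest mean in 15 of these, against 23.4% of all genes so detected. In 8 of the 20, both A-iPSC arrays lay above the other 12, against 9.7% of all genes so detected. The other 7 of the 27 were detected on 8 (Pfkfb3), 9 (Pgam2), 10 (Pdk2), 11 (Aldoc and Pdk4) or 13 arrays (Pgk1 and Slc16a3), so their lower levels were close to the background.

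**Figure D1:**
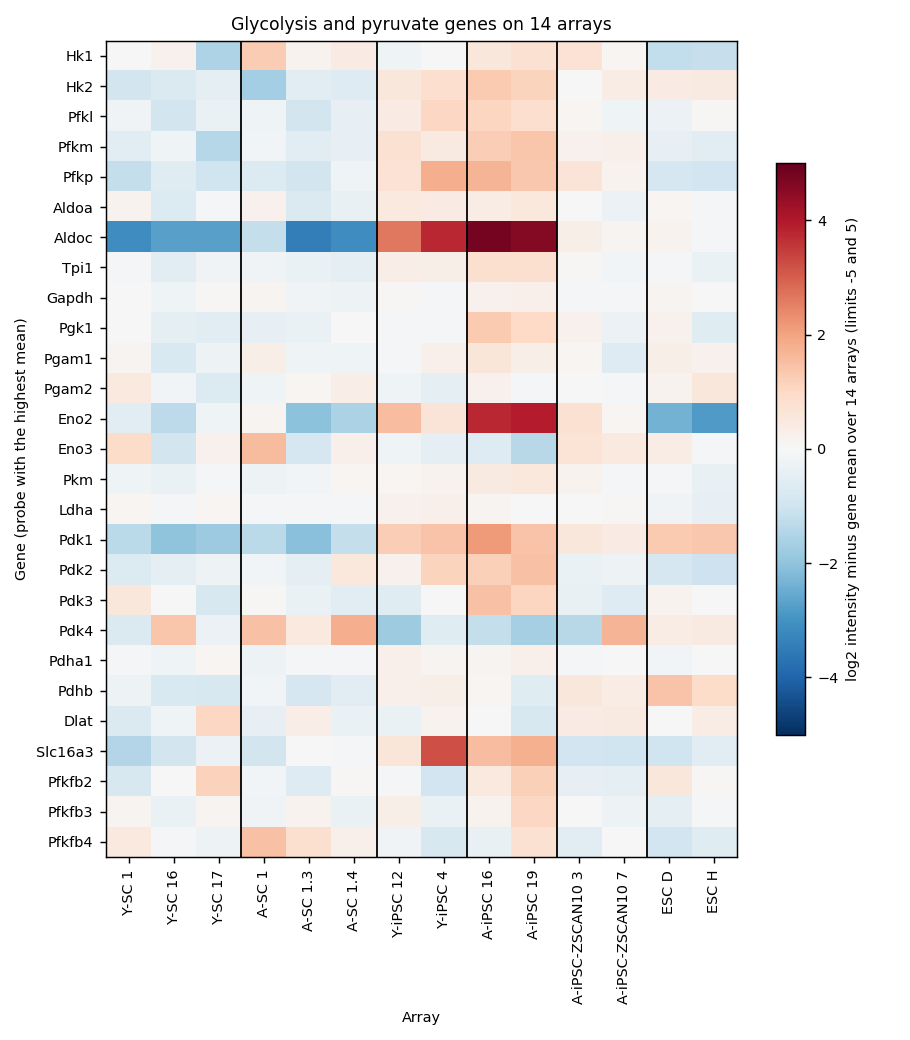
Colour gives the log2 intensity of each of the 27 tested genes (vertical axis) on each of the 14 arrays (horizontal axis, black lines between groups), minus that gene's mean over the arrays, between -5 and 5. Aldoc and Eno2 vary most in colour, and the A-iPSC columns are red for most genes.

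The first question was what distinguished the aged iPSC made with ZSCAN10 from those made without it. With ZSCAN10, 8 of the 27 genes were lower and 0 were higher, while 8.38% of all tested genes were lower, 7.78% higher and 16.2% called in either direction. The 8 were Aldoc, Eno2, Slc16a3, Pdk3, Pdk2, Pdk1, Pgk1 and Tpi1, and they lay at the aldolase, triosephosphate isomerase, phosphoglycerate kinase, enolase and lactate export steps and at the switch of pyruvate dehydrogenase. The median log2 change was -0.73 over the 27 and 0.03 over all genes. Among the 20 genes detected on all arrays, 4 were called (Pdk1, Tpi1, Pdk3 and Eno2), with a background of 15.3%.

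The promoters of the 4 genes with the largest falls are shown here, as 300 bases from 250 before to 50 after the most upstream annotated start, read 5′ to 3′ along the gene from RefSeq on GRCm38.p6. Capitals mark ACGTG or GCGTG, the core letters of the hypoxia response element, on either strand, so that CACGT and CACGC are the same motifs read on the opposite strand.
Aldoc, chr11:78322823-78323122, plus strand: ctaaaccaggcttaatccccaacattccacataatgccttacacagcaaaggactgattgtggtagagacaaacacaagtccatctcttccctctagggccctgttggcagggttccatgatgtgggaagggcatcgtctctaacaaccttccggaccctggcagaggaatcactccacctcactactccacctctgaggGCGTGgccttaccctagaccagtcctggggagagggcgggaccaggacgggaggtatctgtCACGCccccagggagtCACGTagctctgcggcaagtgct
Eno2, chr6:124769624-124769923, minus strand: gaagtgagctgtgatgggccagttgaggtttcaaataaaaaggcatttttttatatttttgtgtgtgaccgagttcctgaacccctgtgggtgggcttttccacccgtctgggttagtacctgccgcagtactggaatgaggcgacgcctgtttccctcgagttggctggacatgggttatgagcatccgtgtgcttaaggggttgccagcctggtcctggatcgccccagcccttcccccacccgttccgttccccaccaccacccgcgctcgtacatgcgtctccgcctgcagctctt
Slc16a3, chr11:120948817-120949116, plus strand: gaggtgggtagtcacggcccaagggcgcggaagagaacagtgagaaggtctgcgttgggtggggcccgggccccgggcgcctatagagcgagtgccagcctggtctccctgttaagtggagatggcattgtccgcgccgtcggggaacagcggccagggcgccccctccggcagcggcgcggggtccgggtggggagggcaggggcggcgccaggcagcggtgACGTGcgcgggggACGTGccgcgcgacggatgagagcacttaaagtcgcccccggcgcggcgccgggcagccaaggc
Pdk3, chrX:93832101-93832400, minus strand: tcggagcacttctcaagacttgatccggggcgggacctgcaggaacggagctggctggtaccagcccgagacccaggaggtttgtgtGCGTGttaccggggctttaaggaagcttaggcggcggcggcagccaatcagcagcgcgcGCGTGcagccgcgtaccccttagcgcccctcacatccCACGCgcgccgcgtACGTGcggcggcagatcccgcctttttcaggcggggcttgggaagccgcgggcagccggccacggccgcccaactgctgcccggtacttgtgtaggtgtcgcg
The Aldoc window held 1 ACGTG and 2 GCGTG, that of Slc16a3 held 2 ACGTG and that of Pdk3 held 1 ACGTG and 3 GCGTG, while that of Eno2 held 0 of either. All 33 listed genes had such windows, 52 in all, since some have several starts. Either motif was found in 38 of the 52 windows (73.1%), compared with 43.8% of the 32851 windows of all genes. Counting each motif whether or not the other was present, ACGTG was in 42.3% against 19.6%, and GCGTG in 53.8% against 32.4%. Genes that were not called had such motifs too. The most upstream window of Ldha, whose change was -0.04, held 5 ACGTG and 2 GCGTG. Whether the motifs go with the falls was not tested. A match describes the letters only, and windows of one gene can overlap.

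Aldoc, an aldolase known mainly from brain, read 12.80 and 12.60 in A-iPSC and 8.30 and 8.16 in A-iPSC-ZSCAN10. Both A-iPSC arrays lay far above both arrays with ZSCAN10, whose level was close to the 8.19 and 7.91 of ESC. Aldoc was 22.2-fold lower with ZSCAN10 (log2 change -4.47 ± 0.60 SE, limma adjusted p = 0.0007801). Eno2, the enolase of neurons, read 12.48 and 12.61 in A-iPSC and 9.47 and 8.79 in A-iPSC-ZSCAN10. It was 10.7-fold lower (log2 change -3.41 ± 0.61, adjusted p = 0.003965). The ZSCAN10 arrays stayed above the 6.33 and 5.87 of ESC for this gene.

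Slc16a3, the monocarboxylate transporter that exports lactate, read 7.93 and 8.15 in A-iPSC and 5.42 and 5.40 in A-iPSC-ZSCAN10. It was 6.18-fold lower (log2 change -2.63 ± 0.67, adjusted p = 0.02127), but its other tested probe changed by 0.02, and the 2 probes had a correlation of -0.10 over 14 arrays. The second probe was detected on 9 arrays. Of the lower glycolytic enzymes, triosephosphate isomerase, Tpi1, read 13.60 and 13.61 in A-iPSC and 12.86 and 12.66 with ZSCAN10, a change of -0.85 ± 0.23 (adjusted p = 0.02619). Its 2 other tested probes had changes of -0.60 (adjusted p = 0.3315) and -0.53 (0.4586) and did not pass. Phosphoglycerate kinase, Pgk1, an ATP-forming step, read 7.04 and 6.72 against 5.94 and 5.42, a change of -1.21 ± 0.33 (adjusted p = 0.02769). Its only probe lay between 5.10 and 5.94 on the 12 arrays outside A-iPSC, where the dimmest detected probes read 4.93 to 5.20, so its fold can be understated.

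Of the 4 kinases that switch off pyruvate dehydrogenase, 3 fell. Pdk3 read 10.69 and 10.32 in A-iPSC and 8.88 and 8.61 in A-iPSC-ZSCAN10 (log2 change -1.76 ± 0.40, adjusted p = 0.01249). Pdk2 read 6.68 and 6.96 against 5.17 and 5.26 (-1.61 ± 0.36, adjusted p = 0.01155). Pdk1 read 11.21 and 10.48 against 9.62 and 9.47 (-1.298 ± 0.34, adjusted p = 0.02494). The levels of these 3 kinases did not overlap between the groups, nor did those of Hk2 and Pfkl, which were not called. A lack of overlap thus does not set the called genes apart. Pdk4 read 5.17 and 4.70 in A-iPSC and 4.97 and 8.04 with ZSCAN10, so the 2 ZSCAN10 arrays differed from each other more than the groups did, and its change of 1.57 did not pass (adjusted p = 0.268).

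The genes that did not pass included the upstream enzymes. Pfkm, Pfkp and Pfkl, the muscle, platelet and liver subunits of phosphofructokinase, had changes of -1.08 (adjusted p = 0.05124), -1.13 (0.061) and -0.99 (0.06474), and hexokinase Hk2 had -1.03 (0.06565). Gapdh had a change of -0.34 on its brightest probe (adjusted p = 0.3244) and -0.82 ± 0.20 on its other probe (adjusted p = 0.0184), so its 2 probes were on different sides of the threshold. Eno3, the enolase of muscle, and the pyruvate dehydrogenase subunits Pdhb and Dlat had changes of 1.60 (adjusted p = 0.141), 0.73 (0.155) and 0.80 (0.3152), which also did not pass. Without 1 array, the count was 2 without A-iPSC-ZSCAN10 7, 3 without A-iPSC 16, 3 without A-iPSC 19, and 4 lower with 1 higher without A-iPSC-ZSCAN10 3. The count over all probes moved with it, from 2314 to 755, 1439, 719 and 1145 in the same order. Aldoc and Eno2 held in each of these 4 fits. Tpi1 and Slc16a3 were lost in all of them, and Pgk1, Pdk1, Pdk2 and Pdk3 in most.

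**Figure D2:**
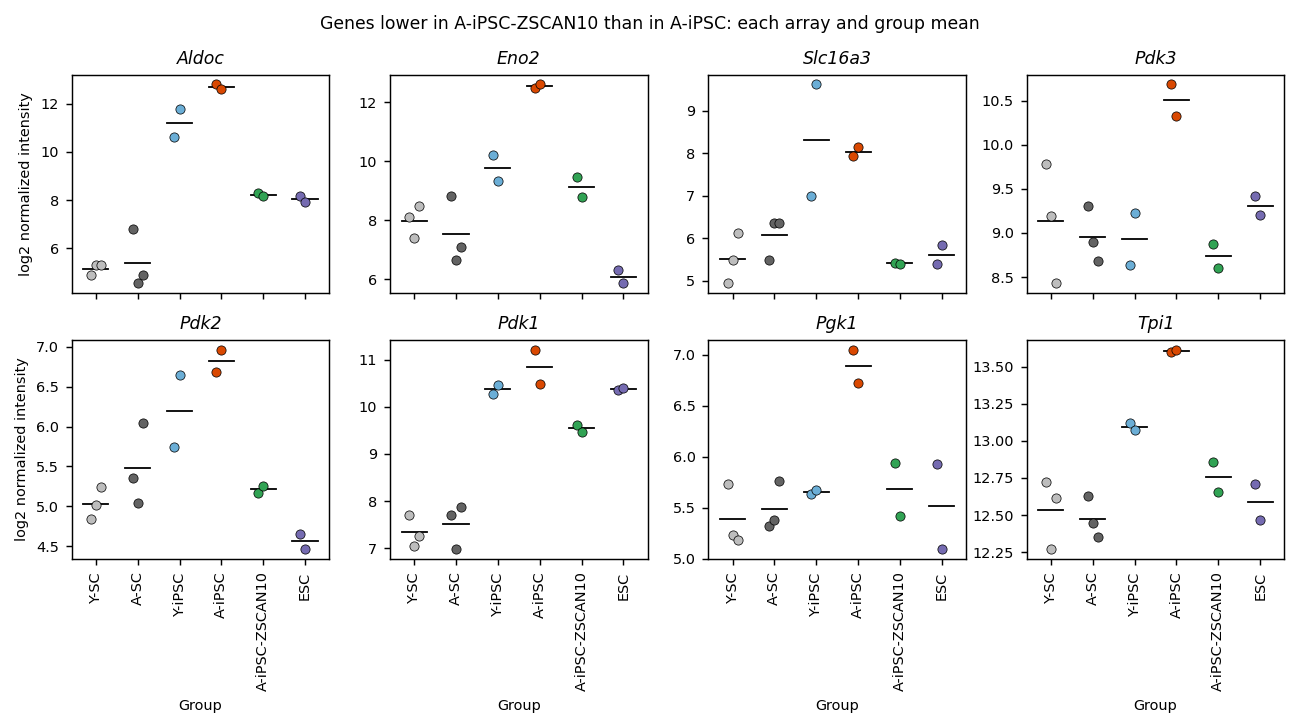
Points give the log2 normalized intensity of each array by group for the 8 genes called lower with ZSCAN10, and lines give group means. The A-iPSC points lie above both A-iPSC-ZSCAN10 points in every panel, and the vertical axes differ between panels.

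Other cell type markers moved with this comparison. The 6 keratinocyte markers summed to 87 to 95 in A-iPSC, with 4 of the 6 not detected, and to 6875 to 10651 in A-iPSC-ZSCAN10. The 6 neural markers summed to 1945 to 2417 in A-iPSC and 5892 to 8136 in A-iPSC-ZSCAN10, and Tubb3, Sox1 and Pax6 were not detected in either group. Most of the neural sum was Stmn2, with a mean level of 10.80 in A-iPSC and 12.64 with ZSCAN10. The fibroblast sum was 455 to 905 in A-iPSC and 2201 to 3410 with ZSCAN10, and the macrophage and muscle sums were 344 or less in both, with Ptprc and Ckm not detected. The part of these cells in the result was not tested. In RNA from whole cultures, fewer cells of a type and less RNA per cell cannot be told apart.

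The comparison of A-iPSC with Y-iPSC asked whether donor age left a mark in the iPSC. Eno2, Pdk3 and Pgk1 were higher in A-iPSC and 0 genes were lower, while 6.12% of all tested genes were higher, 4.38% lower and 10.5% called in either direction. The last share is close to the 11.1% of these 27. The median change was 0.42 over the 27 and -0.01 over all genes, and 21 of the 27 had a positive change. This comparison shares both A-iPSC arrays with the one before, so they are not independent. Among the 20 genes detected on all arrays 2 were called, with a background of 9.08%. Cell type markers differed here too. The keratinocyte sum was 10405 to 11898 in Y-iPSC against 87 to 95 in A-iPSC, and the neural sum 5594 to 6433 against 1945 to 2417. The fibroblast sums overlapped, at 358 to 1677 and 455 to 905. The part of any such cells in this comparison was not tested.

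Eno2 read 10.23 and 9.33 in Y-iPSC, below the 12.48 and 12.61 of A-iPSC, and was 6.79-fold higher in A-iPSC (log2 change 2.76 ± 0.61, adjusted p = 0.01575). Pdk3 read 8.63 and 9.23 in Y-iPSC and was 2.98-fold higher in A-iPSC (1.57 ± 0.40, adjusted p = 0.02756). Pgk1 read 5.63 and 5.68 in Y-iPSC and was 2.35-fold higher in A-iPSC (1.23 ± 0.33, adjusted p = 0.03453). No level of these 3 genes overlapped between the groups, nor did those of Hk2 and Pkm, which were not called. A lack of overlap thus does not set the called genes apart. Aldoc read 10.64 and 11.77 in Y-iPSC, both below A-iPSC, but its change of 1.50 ± 0.60 did not pass (adjusted p = 0.1362). Slc16a3 read 6.99 and 9.62 in Y-iPSC, on either side of the A-iPSC arrays. The calls rested on all 4 arrays: 1 gene was left without Y-iPSC 12 (Eno2, adjusted p = 0.01868), 1 without Y-iPSC 4 (Pdk3, adjusted p = 0.04626), and 0 without A-iPSC 16 or A-iPSC 19. Over all probes 1495 were called, and 1827, 835, 887 and 416 in these 4 fits.

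Between A-iPSC-ZSCAN10 and Y-iPSC, Aldoc was the gene called, 7.85-fold lower in A-iPSC-ZSCAN10 (log2 change -2.97 ± 0.60, adjusted p = 0.03374), while 0.78% of all tested genes were lower, 0.67% higher and 1.45% called in either direction. Its levels were 8.30 and 8.16 with ZSCAN10 and 10.64 and 11.77 in Y-iPSC. The call was lost without Y-iPSC 4 (adjusted p = 0.174), A-iPSC-ZSCAN10 3 (0.1801) or A-iPSC-ZSCAN10 7 (0.1466), and without Y-iPSC 12 the count was 2. Slc16a3 came next with -2.89 ± 0.67 (adjusted p = 0.06275), while Eno2 had -0.65 ± 0.61. The median change was -0.19 over the 27 genes and 0.02 over all genes. Of the 27, 6 had an unadjusted p under 0.05.

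Each iPSC group was next compared with ESC, the reference for the pluripotent state. In A-iPSC, 12 genes were higher and 1 lower than in ESC, where 17.3% of all tested genes were higher, 18.1% lower and 35.5% called in all. In Y-iPSC, 5 were higher and 0 lower, where all tested genes gave 7.49%, 7.53% and 15%. For A-iPSC-ZSCAN10, 2 were higher and 0 lower, where all tested genes gave 6.76%, 6.47% and 13.2%. The shares of the 27 were 48.1%, 18.5% and 7.41%. Among the 20 genes detected on all arrays, 9, 2 and 2 were called, with backgrounds of 36%, 13.2% and 10.3%. These 3 comparisons share the ESC arrays. The median changes were 0.76, 0.27 and 0.15 over the 27, and -0.01, -0.03 and 0.00 over all genes.

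At the first steps, Hk1, the hexokinase of most adult tissues, read 7.93 and 8.13 in A-iPSC and 6.15 and 6.21 in ESC, a change of 1.85 ± 0.52 (adjusted p = 0.0173). Hk2, the inducible hexokinase of muscle and proliferating cells, read 13.06 and 12.86 in A-iPSC and 12.17 and 12.22 in ESC and was not called. Of the phosphofructokinase subunits, Pfkp read 8.47 and 8.36 in ESC, 10.06 and 11.14 in Y-iPSC, 11.04 and 10.69 in A-iPSC, and 9.97 and 9.49 in A-iPSC-ZSCAN10. All 6 iPSC arrays lay above both ESC arrays. Relative to ESC, Pfkp was higher by 2.45 ± 0.37 in A-iPSC (adjusted p = 0.0005427), by 2.19 ± 0.37 in Y-iPSC (0.002606) and by 1.32 ± 0.37 in A-iPSC-ZSCAN10 (0.03941). Pfkm, at 9.80 and 9.67 in ESC and 11.43 and 11.60 in A-iPSC, was higher in A-iPSC by 1.77 ± 0.34 (adjusted p = 0.002167). In Y-iPSC it read 10.99 and 10.68 and just missed the threshold (1.10, adjusted p = 0.05177). Pfkl was higher in A-iPSC by 1.06 ± 0.33 (adjusted p = 0.02787), from a mean of 11.10 ± 0.23 (SD, n = 2) in ESC to 12.16 ± 0.17 (SD, n = 2).

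Further down, Aldoc was 25.1-fold higher in A-iPSC than in ESC (4.65 ± 0.60, adjusted p = 0.0001906) and 8.90-fold higher in Y-iPSC (3.15 ± 0.60, adjusted p = 0.004738), while A-iPSC-ZSCAN10 differed from ESC by 0.18 ± 0.60 and was not called. Eno2 had the largest change of the 27 genes in each of the 3 comparisons. It was 87.1-fold higher in A-iPSC (6.45 ± 0.61, adjusted p = 2.503e-05), 12.8-fold higher in Y-iPSC (3.68 ± 0.61, adjusted p = 0.002298) and 8.18-fold higher in A-iPSC-ZSCAN10 (3.03 ± 0.61, adjusted p = 0.007551). In A-iPSC, Tpi1 was higher than in ESC by 1.02 ± 0.23 (adjusted p = 0.005069), from 12.71 and 12.47 in ESC, and Pgk1 by 1.37 ± 0.33 (adjusted p = 0.007351), from 5.93 and 5.10. Pkm, the pyruvate kinase of most tissues other than liver and red cells, read 13.62 and 13.74 in A-iPSC and 13.11 and 12.82 in ESC, a change of 0.72 ± 0.23 (adjusted p = 0.02872).

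Around pyruvate, Slc16a3 read 5.40 and 5.83 in ESC, and was higher in A-iPSC by 2.42 ± 0.67 (adjusted p = 0.01545) and in Y-iPSC by 2.69 ± 0.67 (adjusted p = 0.02043). Its Y-iPSC arrays, at 6.99 and 9.62, differed widely, and without Y-iPSC 4 the Y-iPSC value was 1.37 (adjusted p = 0.1186). Pdk2 was not detected on either ESC array, so its fold is a lower bound, set from the dimmest detected probes on those arrays. The A-iPSC level was at least 3.70-fold higher (adjusted p = 0.0006607) and that of Y-iPSC at least 2.39-fold higher (adjusted p = 0.01068). Pdk3, at 9.42 and 9.20 in ESC, was higher in A-iPSC by 1.19 ± 0.40 (adjusted p = 0.03537). Pdk1 read 10.36 and 10.41 in ESC and was called in none of these 3 comparisons, although the 2 A-iPSC-ZSCAN10 arrays, at 9.62 and 9.47, lay below both (change -0.84, adjusted p = 0.1401). Pdhb was the 1 gene lower in A-iPSC, at 10.05 and 9.35 against 11.39 and 10.88 in ESC (-1.43 ± 0.33, adjusted p = 0.005748).

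Single arrays changed these counts, and in most of these fits the count over all probes fell too. In A-iPSC against ESC, the count of 13 was 9 without A-iPSC 16 and 7 without A-iPSC 19, ESC D or ESC H, while over all probes 5141 became 2755 to 3758. In Y-iPSC it was 2 without ESC H, 3 without Y-iPSC 4, 4 without ESC D and 5 without Y-iPSC 12. In A-iPSC-ZSCAN10 it was 0 without A-iPSC-ZSCAN10 3 or ESC H, and 1 without A-iPSC-ZSCAN10 7 or ESC D. Other probes of 1 gene did not all pass: in A-iPSC, the second probe of Pfkl had 0.82 (adjusted p = 0.05675), those of Tpi1 0.81 (0.1273) and 0.77 (0.1953), and that of Slc16a3 0.14 (0.7626). In A-iPSC-ZSCAN10 the second probe of Pfkp had 1.17 (adjusted p = 0.1228), and in Y-iPSC that of Slc16a3 had -0.14 (0.8237). The second Gapdh probe was higher in A-iPSC than ESC by 0.72 ± 0.20 (adjusted p = 0.01634), where the first was not called. Pfkm, Pfkp, Aldoc, Tpi1, Eno2 and Pdk2 were called in all 4 fits of the A-iPSC comparison, and Pfkp and Eno2 in all 4 of that with Y-iPSC. Hk1, Pfkl, Pkm, Pdk3 and Slc16a3 were lost in all 4 fits of the A-iPSC comparison, and Pgk1 and Pdhb in some. Pfkp was lost in all 4 of that with A-iPSC-ZSCAN10. ESC differed from the iPSC in other markers too, with a skeletal muscle sum of 3802 to 4193 against 344 or less on every iPSC array. Most of the ESC muscle sum was Mylpf and Acta1, with mean levels of 11.53 and 10.02, while Ckm and Tnnt3 were not detected in ESC. The keratinocyte sum in ESC was 1499 to 2677. The part of any such cells in these values was not tested.

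**Figure D3:**
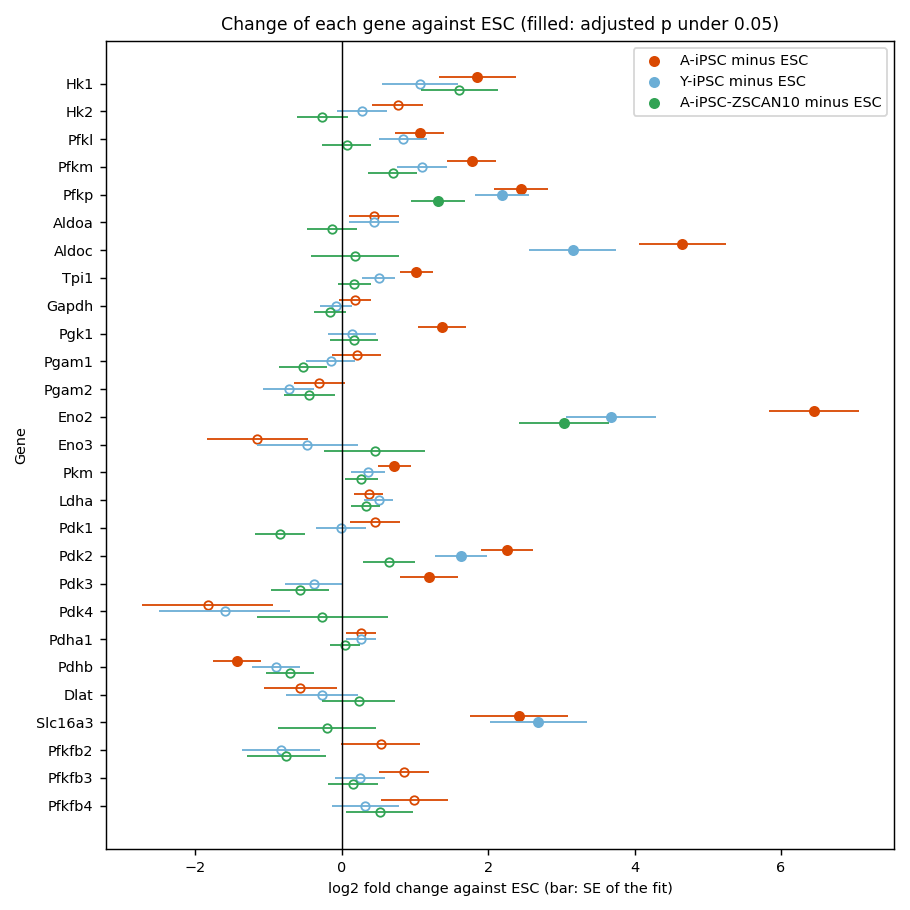
Points give the log2 fold change against ESC of each of the 27 genes in A-iPSC, Y-iPSC and A-iPSC-ZSCAN10, with bars for the standard error of the fit and filled points for an adjusted p under 0.05. Eno2 lies farthest to the right in all 3 comparisons, at 6.45, 3.68 and 3.03, and Pdhb in A-iPSC is the filled point on the left.

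Few genes of any kind were called between the fibroblasts of the 2 donor ages. Of the 27 genes, 0 were called in limma between A-SC and Y-SC, where 0.21% of all tested genes were higher, 0.27% lower and 0.48% called in all, and 1 had an unadjusted p under 0.05. That gene was Hk1, with levels of 8.62, 7.53 and 7.76 in A-SC and 7.36, 7.58 and 5.81 in Y-SC, which overlapped (change 1.05 ± 0.43, adjusted p = 0.4267). The largest change was that of Pdk4 (1.14 ± 0.73, adjusted p = 0.633), with a wide spread between arrays. The median change was 0.10. With so small a background, a count of 0 says nothing particular about these genes. None of the fits without 1 array called a member.

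Against their own fibroblasts, Y-iPSC had 9 genes higher and 0 lower, where 12.1% of all tested genes were higher, 12.5% lower and 24.6% called in all. For A-iPSC the counts were 13 higher and 1 lower, where all tested genes gave 17.9%, 15.5% and 33.4%. A-iPSC-ZSCAN10 had 4 higher than A-SC and 0 lower, where all tested genes gave 12%, 10% and 22%. The median changes were 0.33, 0.75 and 0.14 over the 27, and 0.01, 0.04 and 0.05 over all genes. Among the 20 genes detected on all arrays, 6, 9 and 3 were called, with backgrounds of 23.1%, 32.8% and 21.1%. The keratinocyte sum was 57 to 1591 in Y-SC and 10405 to 11898 in Y-iPSC. It was 40 to 54 in A-SC, 87 to 95 in A-iPSC and 6875 to 10651 in A-iPSC-ZSCAN10. The part of any such cells in these changes was not tested.

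Aldoc was the gene with the largest rise in each. It read 4.90, 5.30 and 5.29 in Y-SC and 6.80, 4.56 and 4.89 in A-SC, where it was detected on 2 and 1 of 3 arrays, so its folds rest on levels close to background in fibroblasts. Its log2 change was 6.04 ± 0.54 in Y-iPSC (adjusted p = 1.674e-05), 7.28 ± 0.54 in A-iPSC (adjusted p = 3.015e-06) and 2.81 ± 0.54 in A-iPSC-ZSCAN10 (adjusted p = 0.004428). Pdk1, a kinase induced by hypoxia, read 6.98 to 7.87 on the 6 fibroblast arrays and 9.47 or more on every iPSC array. It rose by 3.04 ± 0.31 in Y-iPSC (adjusted p = 4.276e-05), 3.32 ± 0.31 in A-iPSC (adjusted p = 1.663e-05) and 2.03 ± 0.31 in A-iPSC-ZSCAN10 (adjusted p = 0.001229). The next largest changes among those that passed were Slc16a3 and Pfkp in Y-iPSC (2.79 ± 0.61 and 2.21 ± 0.34), Eno2 and Pdk4 in A-iPSC (5.01 ± 0.56 and -2.68 ± 0.82), and Hk2 and Pdhb in A-iPSC-ZSCAN10 (1.14 ± 0.32 and 0.97 ± 0.30). With ZSCAN10, changes larger than that of Pdhb that did not pass were those of Eno2 (1.60 ± 0.56, adjusted p = 0.06273), Pfkfb4 (-1.12 ± 0.42, 0.0766), Pdk4 (-1.11 ± 0.82, 0.3646) and Pfkp (1.01 ± 0.34, 0.0546), whose other probe passed (1.38 ± 0.41, 0.03502). Pdk4, the starvation-induced kinase, was the 1 gene that fell, from 7.83, 6.85 and 8.16 in A-SC (adjusted p = 0.02556).

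The count in Y-iPSC was 4 without Y-iPSC 4 and between 6 and 9 without any other array, that in A-iPSC was 10 to 14, and that in A-iPSC-ZSCAN10 was 2 without either of its own arrays. Signals of 4 fibroblast arrays (Y-SC 16 and 17, A-SC 1.3 and 1.4) were written with 1 decimal and the other 10 with more. With this export format as a term, the counts were 7 for Y-iPSC, 13 for A-iPSC and 4 for A-iPSC-ZSCAN10, of which 3 were then higher and 1 lower.

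Whether reprogramming changed a gene differently in aged and young cells was tested as a difference of the 2 changes. Eno2 was the gene called, with a positive difference, while 2.44% of all tested genes had a positive, 1.55% a negative and 3.99% either difference that passed. It rose by 5.01 ± 0.56 from A-SC to A-iPSC and by 1.78 ± 0.56 from Y-SC to Y-iPSC, a difference of 3.23 ± 0.79 (adjusted p = 0.0462). Its fibroblast levels were 8.83, 6.65 and 7.11 in A-SC and 8.12, 7.40 and 8.48 in Y-SC, which overlapped, and the fibroblast groups differed by -0.47 ± 0.50. Eno2 passed without Y-SC 16, A-SC 1 or Y-iPSC 12 and missed the threshold without any of the other 7 arrays of this comparison, with an adjusted p of up to 0.175, without A-iPSC 19. Pdk3 came closest after it (1.75 ± 0.51, adjusted p = 0.0846).

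Isoforms of 1 enzyme were compared by the difference of their log2 intensities within each array. The zero of such a difference is arbitrary, because the 2 probes differ in brightness, and only its change between groups is used. For 16 pairs, the 6 iPSC arrays were set against the 6 fibroblast arrays with an exact two-sided permutation test, adjusted over the 16 pairs, whose smallest possible p is 0.00216. The test takes the arrays of 3 iPSC groups and of 2 fibroblast groups as 6 exchangeable values a side, although arrays of 1 group lie closer together than the groups do for several pairs, so these p-values may be too small. The difference changed in 8 pairs. Where an isoform was not detected, its value is set by the background and the size of the change is not exact. This holds for Aldoc on 3 and Pdk2 on 2 of the 6 fibroblast arrays, for Pdk4 on 3 of the 6 iPSC arrays and for Pfkfb3 on 6 of the 14 arrays.

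The aldolase pair changed most. Aldoa, the aldolase of most tissues, minus Aldoc was 6.73 ± 0.65 (SD, n = 6) in fibroblasts and 1.82 ± 1.80 (SD, n = 6) in iPSC, a change of -4.91 (exact permutation test, adjusted p = 0.01154). By array it was 5.68 to 7.55 in fibroblasts, 2.11 and 0.92 in Y-iPSC, -0.15 and 0.19 in A-iPSC, 3.99 and 3.84 with ZSCAN10, and 4.17 and 4.29 in ESC. Most of the shift was in Aldoc, whose mean changed by 5.42 between fibroblasts and iPSC while that of Aldoa changed by 0.51. In the enolases, Eno2 minus Eno3 went from -0.84 ± 0.60 (SD, n = 6) to 2.33 ± 2.33 (SD, n = 6), a change of 3.17 (exact permutation test, adjusted p = 0.01154). By array it was 2.04 and 1.37 in Y-iPSC, 4.72 and 5.59 in A-iPSC, 0.37 and -0.10 with ZSCAN10, and -2.44 and -2.45 in ESC. A-iPSC-ZSCAN10 thus lay close to the upper fibroblast values of -0.08 and -0.15, and ESC lay below all fibroblasts.

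Among the phosphofructokinase subunits, Pfkl minus Pfkp went from 2.16 ± 0.54 (SD, n = 6) to 1.36 ± 0.17 (SD, n = 6), with 2.47 and 2.90 in ESC (change -0.81, exact permutation test, adjusted p = 0.01154). The changes of Pfkm against Pfkp (-0.58, adjusted p = 0.09004 by the same exact test) and Pfkl against Pfkm (-0.23, 0.5172) did not pass, nor did Hk1 against Hk2 (-1.299, 0.09004) or Pgam1 against Pgam2 (0.35, 0.2684), the phosphoglycerate mutases of brain and muscle.

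Of the pyruvate dehydrogenase kinases, Pdk1 was higher in iPSC relative to each of the other 3. The change was 2.01 against Pdk2, 2.48 against Pdk3 and 4.33 against Pdk4, each with an adjusted p of 0.01154 in the exact permutation test. These 3 pairs share Pdk1 and are not independent. Pdk1 minus Pdk3 was -2.15 to -0.81 on the fibroblast arrays, 0.16 to 1.65 on the iPSC arrays and 0.95 and 1.20 in ESC, so the stem cells lay above all fibroblasts. Pdk4 was detected on 1 of 2 arrays in each iPSC group, and read 8.04 on A-iPSC-ZSCAN10 7. The difference of Pdk2 and Pdk4 changed by 2.32 (adjusted p = 0.04329 by the exact test). That of Pfkfb3 and Pfkfb4, enzymes that set the level of the phosphofructokinase activator fructose 2,6-bisphosphate, changed by 0.85 (adjusted p = 0.02474 by the exact test). Pfkfb3 was close to the background, and the mean of Pfkfb4 changed by -0.64, so no gain of Pfkfb3 can be read from it. These last 2 changes missed the threshold without A-SC 1, A-SC 1.3, A-SC 1.4, Y-iPSC 12, Y-iPSC 4, A-iPSC-ZSCAN10 3 or A-iPSC 16, with 6 pairs left, and the first also without Y-SC 16 or A-iPSC 19. The other 6 changes passed in every fit without 1 array.

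**Figure D4:**
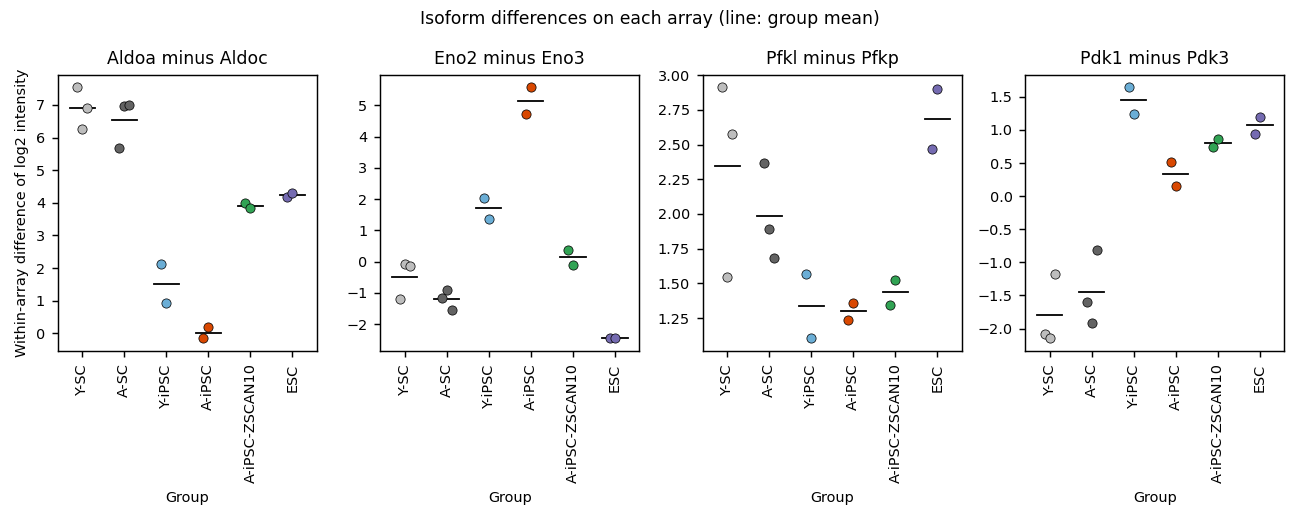
Points give the within-array difference of log2 intensity between 2 isoforms on each array by group, for Aldoa minus Aldoc, Eno2 minus Eno3, Pfkl minus Pfkp and Pdk1 minus Pdk3, and lines give group means. The zero is arbitrary, and the 2 A-iPSC arrays lie lowest for Aldoa minus Aldoc (-0.15 and 0.19) and highest for Eno2 minus Eno3 (4.72 and 5.59).

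The genes called in none of the comparisons among iPSC groups or with ESC are given by the range of their 6 group means. Aldoa ran from 11.97 to 12.72, Gapdh, which makes NADH in glycolysis, from 13.57 to 13.91, Ldha, the lactate dehydrogenase subunit that favours lactate formation, from 12.91 to 13.42, and Pdha1, the regulated subunit of pyruvate dehydrogenase, from 12.07 to 12.39. Pgam1 ran from 10.39 to 11.15, Hk2 from 10.79 to 12.96, and Dlat, the acetyltransferase of the complex, from 6.89 to 7.68. Eno3 had 7.39 to 9.00, Pfkfb2 6.92 to 8.28 and Pfkfb4 7.55 to 9.19. Pgam2 (4.80 to 5.52) and Pfkfb3 (4.85 to 5.71) were at or close to the background in all 6 groups, and Pdk4 ran from 4.94 to 7.62. Ldha was low in ESC, at 13.02 and 12.81, and high in Y-iPSC, at 13.40 and 13.44, a change of 0.51 that did not pass (adjusted p = 0.1144).

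Several genes had more than 1 probe: 19 of the 28 had 1, 5 had 2 and 4 had 3. Between tested probes of 1 gene the correlation over the 14 arrays was 0.84 for Pfkl, 0.94 and 0.96 for Pfkm, 0.93 for Pfkp, 0.92 for Pdhb, 0.75 and 0.85 for Tpi1 and 0.65 for Gapdh. These are descriptions over arrays that share their groups. Lower values were found for Pfkfb2 (0.52), whose second probe was detected on 4 arrays, and for Slc16a3, as given above.

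A further 39 genes next to the pathway, of which 20 were tested, were counted beside it. Between A-iPSC and Y-iPSC, 4 were higher (Bsg, Pgm1, Pgp and Ldhd) and 0 lower, or 20% against 10.5% of all tested genes. Between A-iPSC-ZSCAN10 and A-iPSC, 0 were higher and 4 lower (Bsg, Pgm1, Pdp2 and Ldhd), or 20% against 16.2%, a share near the background. Bsg passed the detection filter only through A-iPSC, so its call in these 2 comparisons cannot be read as support. Among the 14 of the 20 detected on all arrays, 2 were called in each, with backgrounds of 9.08% and 15.3%. Between A-iPSC-ZSCAN10 and Y-iPSC 0 were called in limma, with 4 at an unadjusted p under 0.05. Against ESC, 5 were higher and 3 lower in A-iPSC, 1 higher and 1 lower in Y-iPSC, and 1 higher and 2 lower with ZSCAN10. These were 40%, 10% and 15% of the 20, near the 35.5%, 15% and 13.2% of all tested genes.

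Bsg, basigin, the partner that carries Slc16a1 and Slc16a3 to the plasma membrane, was detected on the 2 A-iPSC arrays and on none of the other 12, so it was tested only because of its level in A-iPSC. Basigin is known to be broadly expressed, and which of its transcripts the probes detect is not given in the sources used here, so these values are those of the probes and may not be those of the gene. Its brighter probe read 8.19 and 10.26 in A-iPSC and 4.35 to 4.58 elsewhere, and its other probe read 8.23 and 9.89. Relative to Y-iPSC, the A-iPSC level of the brighter probe was at least 19.5-fold higher (adjusted p = 0.0001139). Set against A-iPSC, the level of that probe with ZSCAN10 was at least 18.6-fold lower (adjusted p = 0.0001036). Pgm1, phosphoglucomutase, which links glycogen to glycolysis, read 11.74 and 11.41 in A-iPSC, 10.07 and 10.33 in Y-iPSC, 9.34 and 9.04 with ZSCAN10 and 8.99 and 8.83 in ESC. Set against Y-iPSC, the A-iPSC level of Pgm1 was higher by 1.38 ± 0.33 (adjusted p = 0.0218). Set against A-iPSC, its level with ZSCAN10 was lower by 2.38 ± 0.33 (adjusted p = 0.0008875). Pdp2, a phosphatase that reactivates pyruvate dehydrogenase, fell by 1.33 ± 0.33 with ZSCAN10 on its brighter probe (adjusted p = 0.019). Its other tested probe changed by -0.77 (adjusted p = 0.3967) and did not pass. Pdp1, another phosphatase of the complex, changed by 0.50 (adjusted p = 0.356) and did not pass either. A fall of a phosphatase together with 3 of the kinases thus rests on the brighter Pdp2 probe.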

How the data were processed

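The authors deposited a table of non-normalized bead signal intensity with a detection p-value per probe, per the file headers, and a normalized intensity table. The submitters' processing notes name lumi, without a version, and background subtraction is not stated in the sources used here. The deposited normalized table had the same ranks as the raw signals in each column (Spearman 1).

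The raw intensity was background corrected in R 4.3.3 by limma 3.58.1 (neqc, controls inferred from detection p, offset 16), then quantile normalized and put on a log2 scale. Tested were the 14742 of 25697 probes that all arrays of some group detected at p under 0.05. Linear models with 1 mean per group over all 14 arrays (8 residual degrees of freedom, moderated by eBayes with a prior of 3.633) gave 11 comparisons. The brightest tested probe, by mean over all arrays, stood for a gene. The threshold was 0.05 after Benjamini-Hochberg adjustment across all tested probes. Symbols came from the platform annotation, updated through gene IDs, and 1719 probes had no symbol. Columns that belonged to no sample numbered 0. Motifs were searched in RefSeq promoter windows of GRCm38.p6.

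The members, lists and tests were chosen with earlier results of these data known. Every member is named, with array values and tests where it passed among the iPSC groups or against ESC. Against fibroblasts, the 4 largest of the changes that passed are named. Other pathway genes are named where they passed among the iPSC groups. Those that passed elsewhere are counted only. The number of arrays limits the precision. On simulated data, 200 of 14742 probes were changed and no other probe differed between groups. There the test of A-iPSC-ZSCAN10 against A-iPSC recovered 16.7% of log2 changes of 1, 66.7% of 2 and 90% of 3, with 4.54% of calls false. The real comparison called 2314 probes. With fewer probes changed the adjusted threshold is stricter, so these rates do not give the power of the real test. Alternatives were no background correction, median scaling, the authors' normalized intensity, no detection filter, the arrays compared alone, the export format as a term, and leaving out each array.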

Additional observations from a re-analysis of the deposited data

Results flagged for a closer look

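The change of Eno2 on reprogramming differed between the aged and the young cells. It rose more from A-SC to A-iPSC than from Y-SC to Y-iPSC, by 3.23 ± 0.79 on the log2 scale (limma, adjusted p = 0.0462), and both A-iPSC arrays lay above both Y-iPSC arrays. The adjusted p ran from 0.01913 with the authors' normalized table to 0.1031 with the arrays compared alone, and from 0.003503 without A-SC 1 to 0.175 without A-iPSC 19.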

How the results depend on the processing

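With only the arrays compared in the fit, the count was 0 for A-iPSC minus Y-iPSC, 14 for A-iPSC-ZSCAN10 minus A-iPSC and 0 for A-iPSC-ZSCAN10 minus Y-iPSC. It was 3 for Y-iPSC and 6 for A-iPSC-ZSCAN10 minus ESC, and 4 for Y-iPSC minus Y-SC. It was 2 for A-iPSC-ZSCAN10 minus A-SC and 0 for the difference of reprogramming changes. In this order, these fits called 182, 3910, 0, 1087, 4025, 1670, 2343 and 268 of all probes. The main fit called 1495, 2314, 198, 2072, 1809, 3450, 3110 and 562. The member counts moved in the same direction as these. Where no probe was called, the count of 0 says nothing about these genes. Median scaling gave 5 for A-iPSC-ZSCAN10 minus A-iPSC and 2 for A-iPSC-ZSCAN10 minus Y-iPSC. It moved the median over all probes to 0.16 and 0.12 in these, to -0.12 in A-SC minus Y-SC and to 0.15 in A-iPSC-ZSCAN10 minus A-SC. The median of the 27 genes in A-iPSC-ZSCAN10 minus Y-iPSC turned from -0.19 to 0.02, and that in A-SC minus Y-SC from 0.10 to -0.02. Over all probes, A-iPSC-ZSCAN10 minus A-iPSC had 1080 higher and 1234 lower, but 1515 and 963 under median scaling, and A-iPSC-ZSCAN10 minus A-SC 1654 and 1456, but 2331 and 1080. Without the detection filter the count was 0 for A-iPSC-ZSCAN10 minus Y-iPSC, 1 for A-iPSC-ZSCAN10 minus ESC and 0 for the difference. Over all probes, 135, 1640 and 475 were then called. The authors' table gave 1 for A-iPSC-ZSCAN10 minus ESC, with 1743 over all probes. The export format term gave 2 for the difference, with 685 over all probes. The causes were not tested.

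Leaving out 1 array, counts ran from 0 to 1 for A-iPSC minus Y-iPSC, 2 to 5 for A-iPSC-ZSCAN10 minus A-iPSC, 0 to 2 for A-iPSC-ZSCAN10 minus Y-iPSC, 2 to 5 for Y-iPSC, 7 to 9 for A-iPSC and 0 to 1 for A-iPSC-ZSCAN10 minus ESC, 0 to 0 for A-SC minus Y-SC, 4 to 9 for Y-iPSC, 10 to 14 for A-iPSC and 2 to 5 for A-iPSC-ZSCAN10 minus their fibroblasts, 0 to 2 for the difference, and 6 to 11 for isoform pairs. A group then left with 1 array is assumed to vary like the others. Of 33 calls of single genes in limma, 10 held in every such fit and in every alternative, and no such value changed sign under any alternative run. Of 41 calls of single genes or isoform pairs, 4 were lost without background correction, 4 with the authors' table and 8 with median scaling. Slc16a3 in A-iPSC-ZSCAN10 minus A-iPSC changed by -1.25 without background correction (adjusted p = 0.08195). No paired analysis was possible because the array codes do not link samples between groups. Probes near background limit the folds of Pgk1, Pdk2, Pdk4, Pgam2, Pfkfb3, Slc16a3 and, in fibroblasts, Aldoc.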
